A study of Mus musculus with 24 samples.

Results

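The imprinted genes of the mouse, H19 and Igf2 aside, were examined in bulk poly(A) RNA-seq of ESCs and of expanded potential stem cells (EPSCs). A list of 38 genes was matched by symbol to the 2 gene tables of the study, which hold 23095 genes (J1 cells) and 25476 genes (tet-off lines). In both tables, 33 of the 38 were found by symbol, 13 expressed from the maternal and 20 from the paternal allele in the tissues where they are imprinted. Rian, Mirg, Snrpn and Nespas were found only through their Ensembl identifiers (ENSMUSG00000091793, ENSMUSG00000091158, ENSMUSG00000000948 and ENSMUSG00000086537). Their values are given, but they enter no count of called genes. Kcnq1ot1 was found by neither symbol nor identifier and its RNA was not analysed here. All 33 genes had at least 2 reads in each table and were tested.

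The 24 libraries formed 12 groups of 2. The J1 groups were wild-type ESCs without treatment, D-EPSCs and L-EPSCs. J1 ESCs were grown in serum with LIF and 2i on MEF feeders or on gelatin, D-EPSCs in N2B27 with LIF, CHIR99021, dimethindene maleate and minocycline hydrochloride, and L-EPSCs on feeders or gelatin with LIF, CHIR99021, PD0325901, A-419259, XAV939, JNK inhibitor VIII and SB203580. According to the study's methods the EPSCs were taken through several feeder-free passages before sequencing. The other 9 groups came from 3 lines with an Oct4, Sox2 or Nanog tet-off knockin (ZHBTc4, 2TS22C and NgcKO), each sampled as ESCs, as L-EPSCs without doxycycline (Dox) and as L-EPSCs with Dox. All cells of a line lack the endogenous gene and live on a transgene of the same factor that Dox turns off. Each line is a single line with its own transgene, so the transgene, the clone and the genetic background cannot be told apart in differences between lines. Whether the 2 libraries of a group came from separate cultures was not given, so the p-values measure the spread between these libraries, which may be technical.

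Imprinted genes are transcribed from the copy of a single parent. In most cases this rests on DNA methylation laid down in the egg or sperm at an imprinting control region. These genes keep it after fertilization, when most of the genome loses its methylation. Most of them lie in clusters in which one control region sets several genes, often with a long noncoding RNA on one parental copy and protein-coding genes on the other. Many act on growth, the placenta and metabolism, and cultured pluripotent cells are known to vary from line to line in the methylation and the level of these genes. RNA levels such as these do not show which parental copy is transcribed.

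The maternal or paternal mark is protected by zinc finger proteins such as Zfp57, which binds the methylated hexamer TGCCGC. Windows of 30 bases around a match to the hexamer or its reverse complement GCGGCA (capitals) are printed. They are given only for genes that the results turn on and whose promoter held a match. The sequences are from the RefSeq promoters of GRCm38.p6, 5′ to 3′ on the strand of the gene. Their positions are in NCBIM37, the build of the study. Starts are those of RefSeq and differ for some genes from the ends of the gene spans given with the values. The Zdbf2 window lies far upstream of the span given for that gene. The Mest and Plagl1 windows, though before their RefSeq starts, lie inside the spans given. Such windows belong to other starts than those of the annotated spans.
Meg3, chr12:110779004-110779033, plus strand, 190 bases before the start: gccaggggcactGCGGCAgatttttttttc
Plagl1, chr10:12810536-12810565, plus strand, 90 bases before the start: ctggcgtgttgcGCGGCAaagcccacggca
Zdbf2, chr1:63246765-63246794, plus strand, 155 bases before the start: aagcgcatccatTGCCGCcgctttgcggct
Mest, chr6:30687971-30688000, plus strand, 67 bases before the start: aggaggggcgctGCGGCAggatgggcgggt
Grb10, chr11:11937382-11937411, minus strand, 24 bases after the start: gggtgcggggagGCGGCAggaagggaaggg
Nnat, chr2:157385829-157385858, plus strand, 27 bases after the start: gccaccggggctGCGGCAttgcgcccagca
Of the 32 listed genes with a promoter entry of 300 bases (250 before and 50 after the start), 10 held the hexamer on either strand (31.25%), beside 3813 of all 32851 promoters (11.6%) and 3527 of 27025 genes (13.1%). The promoters of Snrpn, Mcts2, Copg2 and Zim1 held it too. Those of Phlda2, Peg3, Usp29, Dio3 and Ddc did not, and Peg10, Cdkn1c and Sgce had no promoter entry. The 32 genes were drawn from all 38 listed genes, not only from the 33 found by symbol. A gene was counted if any of its promoter entries held a match. Neither the number of entries per gene nor base composition was matched, so the shares are not those of like promoters. A match is a run of letters in the reference genome and not a measured binding site, and methylation was not measured in these libraries.

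The 2 values of a group are given as a pair with a slash, the first library before the second, and levels are normalized counts. The tables rest on 11612919 to 15069899 reads per J1 library and 10807631 to 14798984 per tet-off library. The targeted genes followed the labels less fully in one line. Pou5f1 (Oct4) stood at 6420.1/6316 normalized counts in untreated and 162/184 in Dox-treated L-EPSCs of the Oct4 line, and Sox2 at 4966/4701 and 47/53.1 in the Sox2 line. Nanog stood at 9119/8847 and 3166/3112 in the Nanog line, so that RNA counted as Nanog was still abundant there. The study reports loss of Nanog protein with Dox in this line by Western blot, which these RNA counts do not measure. The J1 libraries carried RNA of marker genes of other cell types. The summed level of 18 fibroblast markers was 145882 to 148392 in J1 ESCs, 103978 to 104325 in D-EPSCs and 58544 to 59679 in L-EPSCs, against 5615 to 32609 for the 17 of them found in the tet-off table. Col3a1 of this list stood at 17158/17301, 16451/16452 and 3352/3406 in the J1 groups against at most 2.04 in tet-off libraries. The 9 macrophage markers tested summed to 4037 to 4109, 21360 to 21597 and 16999 to 17061 in the same J1 groups and to 308 to 3149 in the tet-off groups, of which the ESCs held most (2028 to 3149). The fibroblast sum was thus highest in ESCs and lowest in L-EPSCs, and the macrophage sum was lowest in ESCs, while of these markers Lyz2 and Ptprc were at most 5.55 and 2.3 in tet-off libraries. Single fibroblast markers did not all follow their sum. Col3a1 was near level between ESCs and D-EPSCs, and Dcn was highest in D-EPSCs. Other marker lists moved in J1 cells too. The trophoblast list without Ascl2 summed to 1505 to 1521 in ESCs, 193 to 211 in D-EPSCs and 805 to 832 in L-EPSCs, and the 12 primitive endoderm markers to 13952 to 14012, 10151 to 10501 and 5463 to 5563. The 10 defining pluripotency markers summed to 47359 to 65737 in J1 libraries and 49631 to 93099 in untreated tet-off libraries, and to 5872 to 5969 in the Oct4, 9990.1 to 10394 in the Sox2 and 34082 to 35528 in the Nanog line with Dox. Bulk counts do not show which cells made the marker RNA. The part of other cell types in the J1 differences of the imprinted genes was not tested, and in bulk samples fewer cells of a type and less RNA per cell cannot be told apart.

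The first question was which imprinted genes differ between the states of J1 cells. A gene was called where the adjusted p of limma, fitted to log2(normalized count + 1) and adjusted over all genes of the table, was under 0.05 and the log2 difference was beyond 0.6 (J1 cells and ESC to L-EPSC) or beyond 1 (Dox and differences between lines). In D-EPSCs against ESCs, 15 of the 33 imprinted genes were called, 10 higher and 5 lower, beside 20.7% of all 21533 genes tested (10.8% higher, 9.98% lower). In L-EPSCs against ESCs, 11 were called, 5 higher and 6 lower (beside 20.3% of all genes, 8.80% higher and 11.5% lower), and 7 without the second ESC library. Between the EPSC types 11 were called, 5 higher and 6 lower in L-EPSCs (beside 13.4% of all genes, 4.80% higher and 8.58% lower). The members' median log2 difference was 0.43 for D-EPSCs, 0.10 for L-EPSCs and -0.22 between them, beside 0.01, 0 and 0 over all genes. These comparisons share libraries and are not independent of each other. The genes tested include many with few reads, here and in the lines. Only 14255 of 21533 J1 genes and 14173 of 24007 tet-off genes averaged 10 normalized counts or more. Most of the imprinted genes lie above this level. The shares of all genes are thus not those of genes at a like level, which were not taken. Of the 13 maternally expressed genes none was called lower in either EPSC type than in ESCs, with 4 higher in D-EPSCs and 2 in L-EPSCs, and the 20 paternally expressed genes were called in both directions (6 higher and 5 lower in D-EPSCs, 3 higher and 6 lower in L-EPSCs). Of all genes 9.98% and 11.5% were called lower, so that none of 13 is near the background, and differences between the parental classes were not tested here or in the lines.

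In the tet-off lines the questions were what conversion of ESCs to L-EPSCs does in each line and what changes with Dox. No cells without a tet-off transgene were given Dox. An effect of Dox itself therefore cannot be told apart from that of turning off the transgene. On conversion, 17 of 33 genes were called in the Oct4 line (11 higher, 6 lower, beside 28.4% of 24007 genes tested, 13% higher and 15.4% lower), 13 in the Sox2 line (2 higher, 11 lower, beside 19.6% of all genes, 7.99% higher and 11.6% lower) and 16 in the Nanog line (4 higher, 12 lower, beside 26.9% of all genes, 12.2% higher and 14.7% lower). The medians were 0.17, -0.46 and -0.53, beside 0 over all genes in each line. All 11 genes called lower in the Sox2 line were paternally expressed and both called higher were maternally expressed. The paternally expressed Slc38a4 also stood higher after this conversion (means of 4403 in ESCs and 6596 in L-EPSCs) but was not called. The Sox2 counts moved to 3 higher and 11 lower under TMM scaling and to 3 higher and 13 lower under edgeR. Of the 33 genes, 20 are paternally expressed. The other lines did not show this split. In the Oct4 line the paternally expressed Plagl1, Sgce and Mest rose, and in the Nanog line the maternally expressed Grb10 and Meg3 fell. With Dox, 16 genes were called in the Oct4 line (11 higher, 5 lower, beside 19.3% of all genes, 8.53% higher and 10.8% lower), 14 in the Sox2 line (9 higher, 5 lower, beside 15.1% of all genes, 7.79% higher and 7.32% lower) and 3 in the Nanog line (2 higher, 1 lower, beside 5.39% of all genes, 2.80% higher and 2.59% lower), with medians of 0.35, -0.10 and 0.34, beside 0 over all genes. The Sox2 median was 0.04 without the 1 gene at 3 reads or fewer in every library of both groups. The conversion and the Dox comparison of a line share the untreated L-EPSCs.

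The ESCs of the lines already differed in these genes before any conversion. Against the Sox2 ESCs, 12 of 33 were called in Oct4 ESCs, all lower, beside 7.75% of all genes tested (3.41% higher, 4.34% lower). Of the 12, 11 were paternally expressed, as are 20 of the 33. Against Nanog ESCs, 12 were called in Oct4 ESCs (4 higher, 8 lower, beside 9.58% of all genes, 6.01% higher and 3.57% lower), and Sox2 ESCs differed from Nanog ESCs in 9 (6 higher, 3 lower, beside 12.5% of all genes, 7.80% higher and 4.74% lower). The effect of conversion differed between lines by an interaction term in 11 genes for Oct4 minus Sox2 (10 higher, 1 lower, beside 5.36% of all genes, 3.32% higher and 2.04% lower). For Oct4 minus Nanog it differed in 12 genes (10 higher, 2 lower, beside 8.58% of all genes, 4.49% higher and 4.09% lower), and for Sox2 minus Nanog in 9 (4 higher, 5 lower, beside 9.16% of all genes, 4.12% higher and 5.04% lower). For Dox these counts were 7 for Oct4 minus Sox2 (6 higher, 1 lower, beside 6.81% of all genes, 2.12% higher and 4.69% lower), 14 for Oct4 minus Nanog (9 higher, 5 lower, beside 14.8% of all genes, 6.17% higher and 8.59% lower) and 15 for Sox2 minus Nanog (9 higher, 6 lower, beside 11.3% of all genes, 5.57% higher and 5.74% lower). Higher means that the log2 difference was larger in the line named first.

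**Figure D1:**
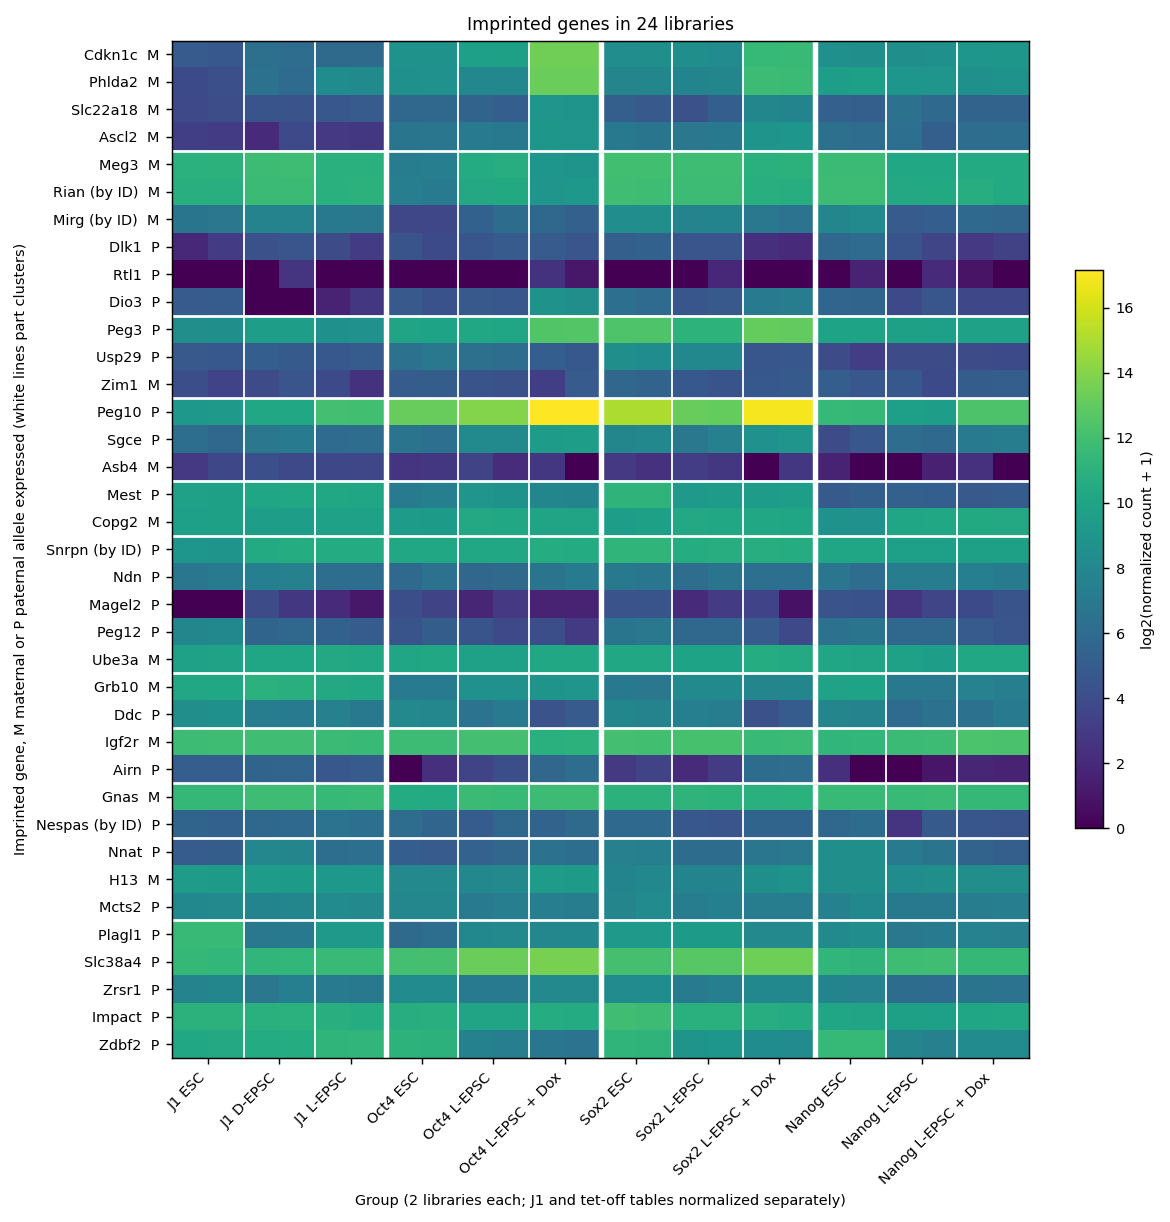
Log2 of (normalized count + 1) for 37 imprinted genes (rows: the 33 named in both tables and 4 found by identifier) in each of the 24 libraries (columns). Colour runs from low to high level; Peg10, Phlda2 and Cdkn1c are brightest in the Dox-treated Oct4 and Sox2 lines, and Meg3, Rian and Mirg are darker in the Oct4 ESCs than in the Sox2 and Nanog ESCs.

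Of the 4 genes of the KvDMR domain on distal chromosome 7, all maternally expressed, Phlda2 and Cdkn1c were higher in both J1 EPSC types, and all 4 rose with Dox in the Oct4 and in the Sox2 line. Phlda2 (chr7:150687450-150688446) encodes a pleckstrin homology protein that restrains growth of the placenta. Its normalized counts were 13.5/17.5 in J1 ESCs, 83.7/63.6 in D-EPSCs and 329/292 in L-EPSCs. The groups did not overlap and L-EPSCs were highest. The log2 differences were 2.18 ± 0.22, adjusted p = 0.00015 for D-EPSCs, 4.25 ± 0.22, adjusted p = 3.7e-06 for L-EPSCs and 2.07 ± 0.22, adjusted p = 0.00032 for L-EPSCs minus D-EPSCs (± SE, n = 2 per group, as for all differences given here). Cdkn1c (chr7:150644255-150646955) encodes p57, an inhibitor of cyclin-dependent kinases. Its counts were 29.7/24.9, 78.6/70.5 and 59.6/58.6 in the same order. Both EPSC types lay above ESCs, by log2 differences of 1.42 ± 0.22, adjusted p = 0.0015 and 1.09 ± 0.22, adjusted p = 0.0053. Slc22a18 (chr7:150659626-150685239), an organic cation transporter, stood at 12.6/15.7, 21.4/19.6 and 23.6/29.9 and was not called in J1 cells, and Ascl2, a transcription factor of the trophoblast, stayed under 13 in every J1 library.

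In the Oct4 line Phlda2 stood at 382/404 in ESCs, 251/261 in L-EPSCs and 9544/9704 with Dox. In the Sox2 line the values were 218/233, 211/229 and 3417/3272, and in the Nanog line 732/821, 516/496 and 388/425. The Dox-treated libraries of the first 2 lines thus stood far above the rest, with log2 differences of 5.23 ± 0.07, adjusted p = 3.6e-18 and 3.92 ± 0.07, adjusted p = 2.7e-16, and Phlda2 was not called with Dox in the Nanog line. Cdkn1c went from 838/842 to 11149/10926 in the Oct4 line, from 371/314 to 2905/3092 in the Sox2 line and from 364/385 to 527/538 in the Nanog line. The Dox groups lay above the untreated L-EPSCs in each line, and the call was made in 2 of them, at 3.71 ± 0.07, adjusted p = 2.5e-16 and 3.13 ± 0.07, adjusted p = 4.7e-15. Slc22a18 went from 42.6/33.2 to 486/463 in the Oct4 line and from 18.4/33.9 to 238/214 in the Sox2 line, which were rises of 3.62 ± 0.26, adjusted p = 5.9e-09 and 3.12 ± 0.26, adjusted p = 4.9e-08. Ascl2 (chr7:150152727-150155169) rose from 143/121 to 531/498 and from 109/124 to 461/515 in these lines and stood at 74.6/35.7 and 67.6/71.9 in the Nanog line.

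On conversion, Cdkn1c rose from 443/458 to 838/842 in the Oct4 line and Phlda2 fell there and in the Nanog line. Slc22a18 rose in the Nanog line from 36.6/34.8 to 83.1/58.1. Phlda2 differed between the ESC lines as well, at -1.78 ± 0.07, adjusted p = 5.2e-12 for Sox2 minus Nanog ESCs. Trophoblast markers moved with the Dox rises. The summed level of the trophoblast list without Ascl2 was 4389.9 and 4505 in untreated and 28824 and 29113 in Dox-treated Oct4 L-EPSCs, with 7 of 10 tested markers called higher and none lower. In the Sox2 line it was 1921 and 1947 without and 11851 and 11869 with Dox, with 8 of 10 called higher and none lower. In the Nanog line it was 592 and 624 without and 951 and 968 with Dox, with 1 of 10 called higher. Elf5, a transcription factor of trophoblast stem cells, stood at 7.99/8.98 without and 151/183 with Dox in the Oct4 line, while the spongiotrophoblast marker Tpbpa was at most 8.88 in any tet-off library. The part of trophoblast-like cells in the rises of imprinted genes was not tested.

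The Dlk1-Dio3 domain on chromosome 12 holds the maternally expressed noncoding RNAs Meg3, Rian and Mirg, which host microRNAs and snoRNAs, and the paternally expressed Dlk1, Rtl1 and Dio3. The 3 noncoding RNAs were lower in the Oct4 ESCs than in the Sox2 and Nanog ESCs, and Meg3 rose in the L-EPSCs made from the Oct4 ESCs. Meg3 (chr12:110779211-110809936) stood at 154/161 in Oct4, 3978/3919.8 in Sox2 and 3323/3381 in Nanog ESCs. Oct4 ESCs lay below all other groups of the lines, with log2 differences of -4.64 ± 0.05, adjusted p = 8.7e-19 from Sox2 and -4.41 ± 0.05, adjusted p = 2e-18 from Nanog ESCs. In L-EPSCs Meg3 stood at 1520.1/1612, 3557/3590.5 and 1183/1191 in the 3 lines. It rose on conversion of the Oct4 line (3.31 ± 0.05, adjusted p = 3.7e-17) and fell in the Nanog line (-1.50 ± 0.05, adjusted p = 4.7e-13), while the Sox2 line was not called. With Dox the values were 512/472, 1880.0/2047 and 1400.1/1422, and the fall in the Oct4 line was called.

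Rian (chr12:110842155-110899919) was at 160.0/138, 3743/3645 and 3493/3425 in the 3 kinds of ESCs and 1275/1392, 3395/3469 and 1285/1337 in their L-EPSCs. Mirg (chr12:110973191-110987665) stood at 11.5/11.6, 336/355 and 229/295 in ESCs and at 39/64.7, 199/209.5 and 29.8/34.7 in L-EPSCs. Both RNAs were lowest in Oct4 ESCs, as Meg3 was, and higher in the Oct4 L-EPSCs. In J1 cells Meg3 stood at 1992/2112 in ESCs, 3480.0/3679 in D-EPSCs and 1899.9/1932 in L-EPSCs. D-EPSCs were highest, above L-EPSCs with L-EPSCs minus D-EPSCs at -0.90 ± 0.04, adjusted p = 4.9e-06. Rian was at 1775/1694, 3239/3299 and 1915/2084 and Mirg at 98.8/108, 206/202 and 122/116, also highest in D-EPSCs.

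**Figure D2:**
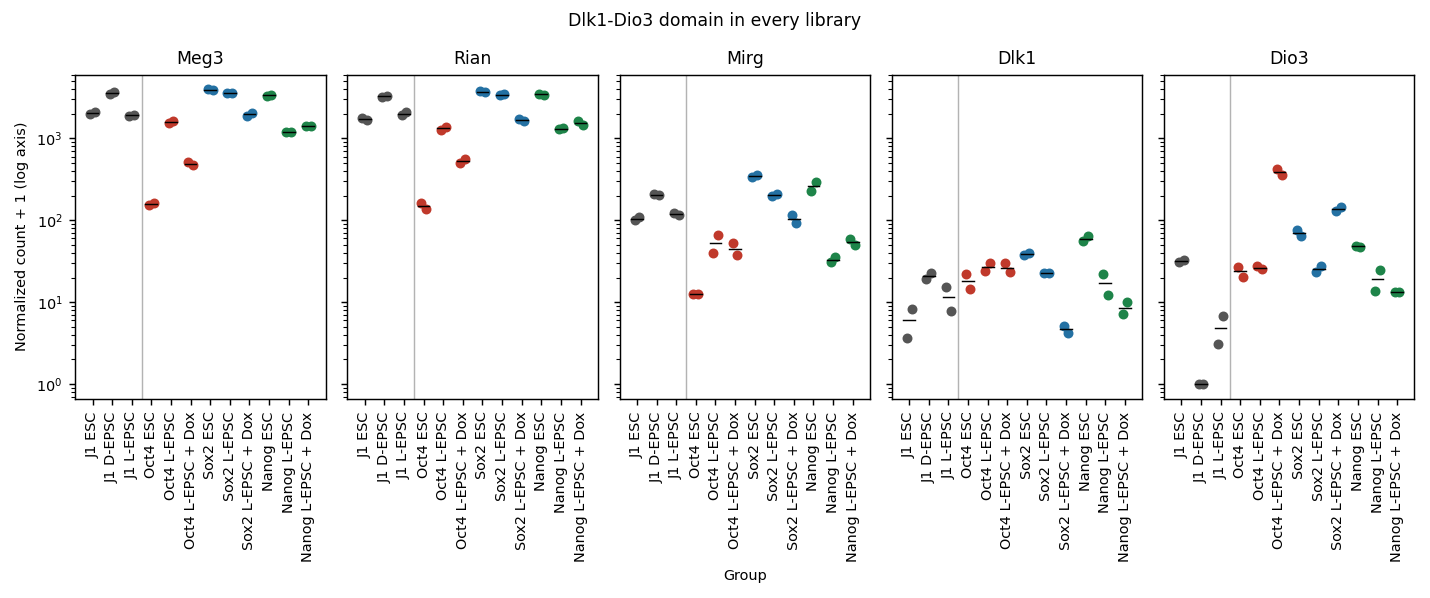
Normalized count + 1 (log axis) of Meg3, Rian, Mirg, Dlk1 and Dio3 in each library, by group; points are libraries and horizontal lines are means of 2. The 3 noncoding RNAs are lowest in the Oct4 ESCs, and Dio3 is at 0 in both D-EPSC libraries and highest in the Oct4 L-EPSCs with Dox.

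Of the paternally expressed genes of the domain, Dio3 (chr12:111517278-111519307) encodes a deiodinase that inactivates thyroid hormone. It was read at 29.7/31.4 in J1 ESCs, 0/0 in D-EPSCs and 2.06/5.75 in L-EPSCs. D-EPSCs held no read in either library and lay at least 10.2-fold below ESCs against a floor of 3 reads per library, and the L-EPSCs were called lower than ESCs as well. In the lines Dio3 stood at 26.6/24.3 and 419/359 without and with Dox in Oct4 L-EPSCs, at 22.7/26.9 and 129.5/144 in Sox2 L-EPSCs and at 12.8/23.4 and 12.3/12.4 in Nanog L-EPSCs. It rose with Dox in the first 2 lines (3.88 ± 0.27, adjusted p = 4.3e-09 and 2.42 ± 0.27, adjusted p = 1.7e-06). On conversion it fell in the Sox2 line from 74.7/63.3 (-1.44 ± 0.27, adjusted p = 0.00047) and in the Nanog line from 48.1/46. Dlk1 (chr12:110691033-110701546), a transmembrane ligand related to Notch ligands, was low throughout. It reached at most 62.8 normalized counts, in Nanog ESCs, and fell there on conversion from 54.4/62.8 to 21.3/11.2 (-1.85 ± 0.39, adjusted p = 0.00086), a call lost with the 2 groups fitted alone (adjusted p = 0.079). In the Sox2 line it went from 21.6/21.9 to 4.12/3.27 with Dox, a called fall, and in J1 cells it was at 2.7/7.38, 18.4/21.5 and 14.4/6.9 and called higher in D-EPSCs. Dlk1 stood at 20.9/13.5 in Oct4 ESCs, 36.3/39 in Sox2 ESCs and was called lower in Oct4 than in Sox2 and Nanog ESCs. Rtl1, a retrotransposon-derived gene opposite to several microRNAs, was at 0 to 4.89 in all libraries.

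Of the Peg3 domain on proximal chromosome 7, Peg3 (chr7:6656603-6683132), a paternally expressed zinc finger protein, rose with Dox in the Oct4 and Sox2 lines, while its neighbour Usp29 fell. Peg3 stood at 1029.9/974, 1191/1083 and 5857/6012 in Oct4 ESCs, L-EPSCs and Dox-treated L-EPSCs. In the Sox2 line it was at 5400.2/5604, 2166/2177 and 8799/8461. In the Nanog line it was at 981/973, 845/823 and 904/885, not called. The Dox rise in the Oct4 line was 2.38 ± 0.04, adjusted p = 2.3e-16. Peg3 also rose with Dox in the Sox2 line, where conversion had lowered it (-1.34 ± 0.04, adjusted p = 1.3e-12). Sox2 ESCs were the highest of the ESCs, with Oct4 minus Sox2 at -2.46 ± 0.04, adjusted p = 7.1e-16 and Sox2 minus Nanog at 2.49 ± 0.04, adjusted p = 3.2e-16. In J1 cells Peg3 stood at 361/376, 761/766 and 383/417. It was higher in D-EPSCs than in ESCs (1.05 ± 0.07, adjusted p = 1.3e-05) and than in L-EPSCs (-0.93 ± 0.07, adjusted p = 4.5e-05 for L-EPSCs minus D-EPSCs).

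Usp29 (chr7:6913871-6916480), a deubiquitinating enzyme, was at 81.6/118, 376/323 and 14.6/7.85 in Oct4, Sox2 and Nanog ESCs. The 3 lines did not overlap, with Oct4 minus Sox2 at -1.82 ± 0.28, adjusted p = 8.9e-05, Oct4 minus Nanog at 3.07 ± 0.28, adjusted p = 2.5e-07 and Sox2 minus Nanog at 4.89 ± 0.28, adjusted p = 5.7e-10. The call for Oct4 minus Nanog was lost with the 2 groups fitted alone (adjusted p = 0.053). With Dox it fell from 251/258 to 23.1/23.7 in the Sox2 line (-3.39 ± 0.28, adjusted p = 3.6e-08) and from 79.9/70.1 to 34.5/25.5 in the Oct4 line, and stood at 13.8/14.3 and 14.1/13.5 in the Nanog line. In J1 cells it lay between 25.7 and 33.7 in all 6 libraries. Zim1, the maternally expressed zinc finger gene of the domain, stayed between 4.6 and 50.5 and was called in none of the comparisons.

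Peg10 (chr6:4697306-4710514), a retrotransposon-derived gene needed for the placenta, was the most abundant imprinted gene per length in Dox-treated Oct4 and Sox2 L-EPSCs and was called in every comparison within a line. It stood at 9106/9075, 16075/15708 and 145533/143558 in Oct4 ESCs, L-EPSCs and Dox-treated L-EPSCs. In the Sox2 line it was at 33501/33246, 9174/8929 and 122218/122905, and in the Nanog line at 2827/2713, 803/769.8 and 5200.0/5232. With Dox it took 1.17% and 1.15% of all reads in the 2 Oct4 libraries and 1.01% and 1.02% in the Sox2 libraries, against 0.129% and 0.127% and 0.0742% and 0.0724% without Dox. It rose with Dox in all 3 lines, by 3.19 ± 0.03, adjusted p = 6.3e-21 in the Oct4, 3.76 ± 0.03, adjusted p = 1.4e-21 in the Sox2 and 2.73 ± 0.03, adjusted p = 2e-19 in the Nanog line. Conversion had moved it up in the Oct4 line and down in the Sox2 (-1.88 ± 0.03, adjusted p = 3.2e-17) and Nanog lines (-1.82 ± 0.03, adjusted p = 1.9e-17). Among ESCs the order was Sox2, Oct4, Nanog, with Oct4 minus Sox2 at -1.88 ± 0.03, adjusted p = 1.7e-17 and Sox2 minus Nanog at 3.59 ± 0.03, adjusted p = 2.8e-21. The trophoblast list without Ascl2 had the same order in ESCs, with sums of 5635 to 5670 in the Sox2, 1711 to 1831 in the Oct4 and 584 to 599 in the Nanog line. On conversion it stood higher in the Oct4 line, where 6 of 10 markers were called higher and none lower, and lower in the Sox2 line, where 4 were called lower and none higher (4390 to 4505 and 1921 to 1947 in L-EPSCs). In Nanog L-EPSCs it was at 592 to 624, with 4 called higher and 1 lower. The part of such cells in the Peg10 differences was not tested. In J1 cells Peg10 stood at 557/588 in ESCs, 1258/1264 in D-EPSCs and 4241/4055 in L-EPSCs. The groups did not overlap and rose in that order, by 1.14 ± 0.04, adjusted p = 8e-07 for D-EPSCs and 2.85 ± 0.04, adjusted p = 1.3e-08 for L-EPSCs against ESCs, and 1.72 ± 0.04, adjusted p = 4e-07 between the EPSC types.

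Sgce (chr6:4624350-4697204), the sarcoglycan gene next to Peg10 that is also paternally expressed, was at 96.2/77.4, 296/294 and 706/759 in the 3 states of the Oct4 line. It was at 233/253, 118/177 and 415/483 in the Sox2 line and at 14.6/24.7, 68.2/57.1 and 125/145 in the Nanog line. On conversion it rose in the Oct4 (1.76 ± 0.21, adjusted p = 2.9e-06) and Nanog lines (1.66 ± 0.21, adjusted p = 6.1e-06) and fell in the Sox2 line, and with Dox it rose in all 3, by 1.10 ± 0.21, adjusted p = 0.00099 in the Nanog line. The Nanog ESCs held least, with Oct4 minus Nanog at 2.12 ± 0.21, adjusted p = 8.8e-07 and Sox2 minus Nanog at 3.61 ± 0.21, adjusted p = 9.7e-10. Fitted alone, the groups gave no call for Sgce on conversion of the Nanog line, with Dox in that line or for Oct4 minus Nanog ESCs (adjusted p = 0.072, 0.072 and 0.066). The Dox difference in the Nanog line was under the threshold of 1 without the second Dox or the second untreated library (0.99 and 0.97). In J1 cells it stood at 71/55.3, 108/124 and 62.7/70.1, highest in D-EPSCs. Asb4, a maternally expressed gene of the domain, was under 18 in every library and was not called.

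Mest (chr6:30673547-30698457), a paternally expressed gene of the alpha/beta hydrolase family, separated the ESC lines most widely of the genes named. It stood at 137/168 in Oct4, 2317/2305 in Sox2 and 28.2/35.9 in Nanog ESCs. The lines did not overlap, with Oct4 minus Sox2 at -3.92 ± 0.13, adjusted p = 2.1e-12, Oct4 minus Nanog at 2.22 ± 0.13, adjusted p = 1.5e-09 and Sox2 minus Nanog at 6.14 ± 0.13, adjusted p = 3.1e-15. In L-EPSCs the values were 492/458, 623/670.4 and 37.3/33.6. Conversion thus raised Mest in the Oct4 line (1.64 ± 0.13, adjusted p = 1.9e-08), lowered it in the Sox2 line (-1.84 ± 0.13, adjusted p = 1e-08) and was not called in the Nanog line. With Dox it fell in the Oct4 line to 235/214, and was at 728/777 and 26.4/31.5 in the other two. J1 cells held 917/850.3, 1156/1262 and 1231/1161, not called. Copg2 (chr6:30697554-30846794), a maternally expressed gene of vesicle coats on the opposite strand, shares 904 exon bases with Mest, and the strand setting of the counting was not given, so reads there cannot be assigned to one of them with certainty. It rose on conversion in all 3 lines, from 671/636 to 1280.5/1186, from 787/853 to 1299/1210.1 and from 436/401 to 1133/1197, and was between 733 and 919 in J1 cells.

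**Figure D3:**
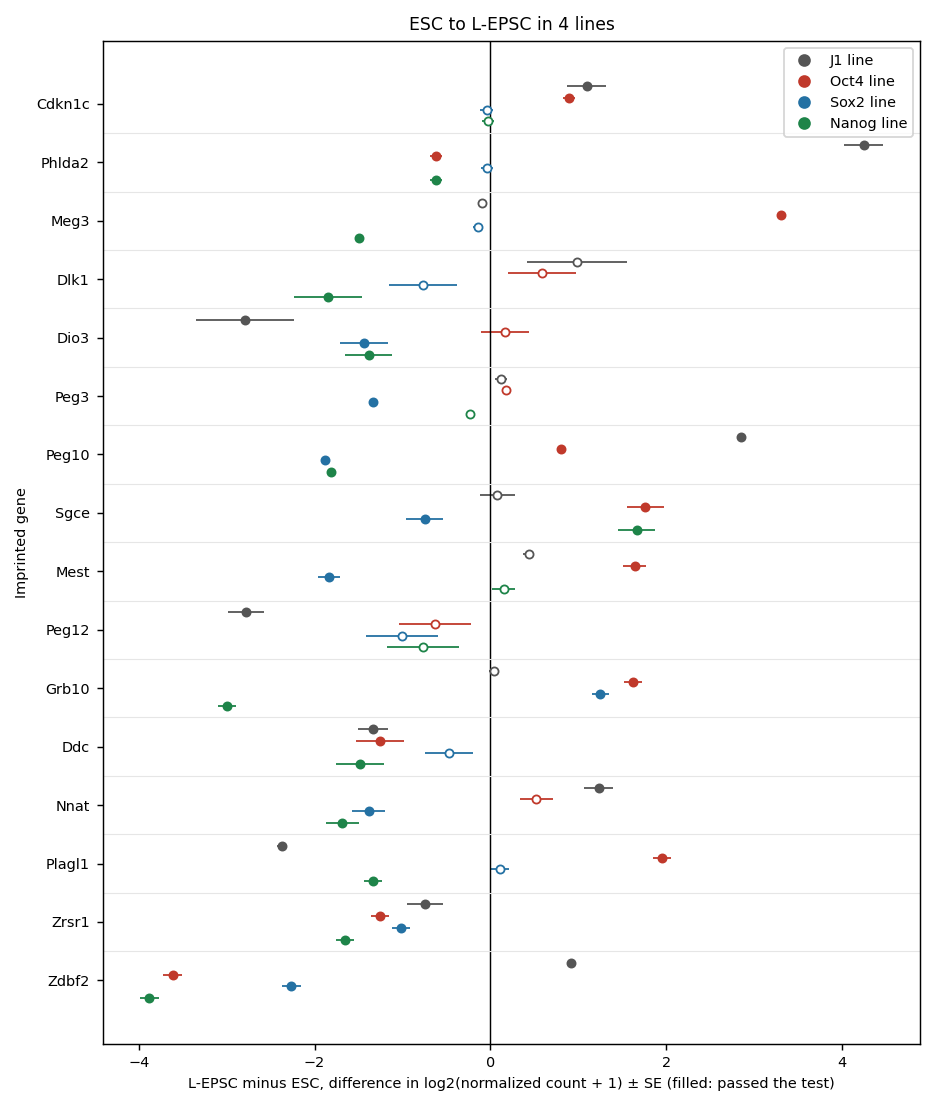
Log2 difference, L-EPSCs minus ESCs, with its SE for 16 imprinted genes in J1 cells and in the 3 tet-off lines (without Dox). Zdbf2 lies below 0 in the 3 tet-off lines and above 0 in J1, and Meg3, Mest, Grb10 and Plagl1 lie on different sides of 0 in different lines. Genes at the floor in both groups of a comparison are not drawn.

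In the Snrpn domain of central chromosome 7, Peg12 (chr7:69606757-69609396), a small intronless gene related to a GSK-3 binding protein, was lower in both J1 EPSC types. It stood at 235/255 in ESCs, 44.9/54.8 in D-EPSCs and 39.1/31 in L-EPSCs, with log2 differences from ESCs of -2.28 ± 0.20, adjusted p = 6.5e-05 and -2.78 ± 0.20, adjusted p = 2.1e-05. In the lines it was at 20.9/31.9 in Oct4, 99.9/114 in Sox2 and 86.8/95.3 in Nanog ESCs. Oct4 ESCs were lowest, with differences of -2.01 ± 0.41, adjusted p = 0.0013 from Sox2 and -1.78 ± 0.41, adjusted p = 0.0032 from Nanog ESCs. The second of these calls was lost with the groups fitted alone (adjusted p = 0.059) and without the first Oct4 library (adjusted p = 0.06). With Dox it fell in the Sox2 line from 51.9/53.9 to 28.9/13.1. Snrpn (chr7:67127388-67285105), which encodes a protein of the spliceosome and was found by identifier, stood at 511/471, 1445/1549.7 and 1498/1528 in J1 cells, where both EPSC types lay above ESCs, and between 816 and 2367 in the tet-off libraries. Ndn (chr7:69493163-69494814), a MAGE family protein of neurons, was at 108/140.2, 166/175 and 73/73.6. L-EPSCs were lowest, at -1.21 ± 0.16, adjusted p = 0.001 from D-EPSCs, and the difference from ESCs was called too. Without the second D-EPSC library the first of these calls was lost (adjusted p = 0.055). The 6 neural markers tested summed to 2092 to 2205 in J1 ESCs, 3160 to 3282 in D-EPSCs and 1094 to 1110 in L-EPSCs, the same order as Ndn, and the part of neural-like cells in this was not tested. In the Nanog line Ndn rose on conversion from 106/68.4 to 157/149. Magel2, another MAGE gene, was under 22 in every library, was called higher in D-EPSCs (14.3/5.87 against 0/0) and lower after conversion of the Sox2 line. Ube3a (chr7:66484122-66562097), a ubiquitin ligase imprinted in neurons, was between 792 and 1541 in all 24 libraries and called in none of the comparisons.

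Grb10 (chr11:11830511-11938686), an adaptor that damps insulin and growth factor receptor signalling, changed in opposite directions on conversion of different lines. It stood at 124/140.2, 123/108 and 962/985 in Oct4, Sox2 and Nanog ESCs and at 405/411, 278/275 and 124/118 in their L-EPSCs. Nanog ESCs held most, with Oct4 minus Nanog at -2.87 ± 0.10, adjusted p = 2.7e-12 and Sox2 minus Nanog at -3.06 ± 0.10, adjusted p = 7.2e-13. It rose in the Oct4 (1.62 ± 0.10, adjusted p = 8.1e-10) and Sox2 lines (1.25 ± 0.10, adjusted p = 4e-08) and fell in the Nanog line (-3.0 ± 0.10, adjusted p = 5.1e-13). The difference between these effects was itself called, at 4.62 on the log2 scale for Oct4 minus Nanog and 4.25 for Sox2 minus Nanog. With Dox the values were 462/499.5, 221/235 and 189.7/159.6, none called. In J1 cells Grb10 was at 1222/1222, 1973/1799 and 1304/1215, highest in D-EPSCs, which were called against ESCs. Its neighbour Ddc (chr11:11714104-11798047), a decarboxylase of dopamine and serotonin synthesis, went the other way in J1 cells, at 363/390.1, 146/134 and 179.9/123. Both EPSC types lay below ESCs, with log2 differences of -1.42 ± 0.17, adjusted p = 0.00039 and -1.33 ± 0.17, adjusted p = 0.00054. Both calls were lost without either ESC library (adjusted p = 0.051 to 0.064), and that of D-EPSCs also without their second library (adjusted p = 0.056). In the lines it fell on conversion in the Oct4 line from 266/248 to 90.5/127 (-1.25 ± 0.27, adjusted p = 0.0012) and in the Nanog line from 223/203 to 63.9/88.7. With Dox it fell to 19.6/28.9 in the Oct4 line (-2.12 ± 0.27, adjusted p = 6.2e-06) and from 171/145 to 18.1/31.1 in the Sox2 line (-2.67 ± 0.27, adjusted p = 5.4e-07), and it stood at 83.4/134 in the Nanog line.

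In the Igf2r domain of chromosome 17, Igf2r (chr17:12875272-12962530), the receptor that clears IGF2, is maternally expressed, and the paternal noncoding RNA Airn overlaps its promoter in antisense. The genes share no annotated exon base, but with the strand setting not given, unspliced reads of their overlap cannot be told apart. Igf2r stood at 4177/4117 and 1936/2087 without and with Dox in the Oct4 line, at 4639.8/4584 and 3211/3330.3 in the Sox2 line and at 3299.8/3457 and 4909/4890.0 in the Nanog line. The fall in the Oct4 line was called. Airn (chr17:12934177-13052988) stood at 10.6/16.2 and 49.5/68.8, 3.24/6.98 and 66/68.7, and 0/1.02 and 2.64/2.25 in the same groups. The Dox libraries of the Oct4 and Sox2 lines held more Airn, by 2.07 ± 0.79, adjusted p = 0.044 and 3.55 ± 0.79, adjusted p = 0.0015. Both calls were lost with a pseudocount of 0.1 (adjusted p = 0.37 and 0.1), and that of the Oct4 line also with no filter (adjusted p = 0.051) and without any 1 of its 4 libraries (adjusted p = 0.098 to 0.21). In J1 cells Airn was at 34.1/34.1, 46/47 and 23.6/28.7, and L-EPSCs minus D-EPSCs was -0.81 ± 0.26, adjusted p = 0.05, just inside the threshold before rounding. It was lost without any 1 of its 4 libraries (adjusted p = 0.057 to 0.13) and under other alternatives. Igf2r lay between 3067 and 3802 in J1 cells, not called.

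In the Gnas domain of chromosome 2, Gnas (chr2:174109821-174172245), the stimulatory G protein subunit that is imprinted in some tissues, was at 1473/1446 in Oct4, 2121/2071 in Sox2 and 3040.5/3045 in Nanog ESCs. It rose on conversion of the Oct4 line to 3358/3143, and Oct4 ESCs were called lower than Nanog ESCs. The antisense RNA Nespas shares 988 exon bases with Gnas on the opposite strand, so its counts, 5.33 to 89.4 over the 24 libraries, are uncertain. Nnat (chr2:157385814-157388258), a paternally expressed proteolipid of neurons within an intron of another gene, was at 30.6/32.3, 243/225 and 73/77 in J1 ESCs, D-EPSCs and L-EPSCs. The groups did not overlap, with 2.86 ± 0.16, adjusted p = 5.7e-06 for D-EPSCs, 1.23 ± 0.16, adjusted p = 0.00057 for L-EPSCs and -1.63 ± 0.16, adjusted p = 0.00021 between them. ESCs of the Oct4, Sox2 and Nanog lines held 33.5/30, 179.7/169.9 and 369/368, and their untreated L-EPSCs 41.7/50.3, 65.9/66.8 and 136/94.8. Oct4 ESCs were lowest (-2.43 ± 0.19, adjusted p = 4.9e-08 from Sox2 and -3.50 ± 0.19, adjusted p = 5.4e-10 from Nanog ESCs). Conversion lowered it in the Sox2 (-1.38 ± 0.19, adjusted p = 1.8e-05) and Nanog lines (-1.69 ± 0.19, adjusted p = 1.3e-06). With Dox it fell further in the Nanog line to 43.9/36 (-1.49 ± 0.19, adjusted p = 1.7e-05), a call lost with the 2 groups fitted alone (adjusted p = 0.1). H13, a signal peptide peptidase, rose with Dox in the Oct4 line from 255/265 to 681/639. Mcts2, an intronless translation factor gene lying within H13, fell on conversion in all 3 lines, from 247/246 to 130.4/157, 222/309.5 to 152/169.6 and 186/261 to 121/119.

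**Figure D4:**
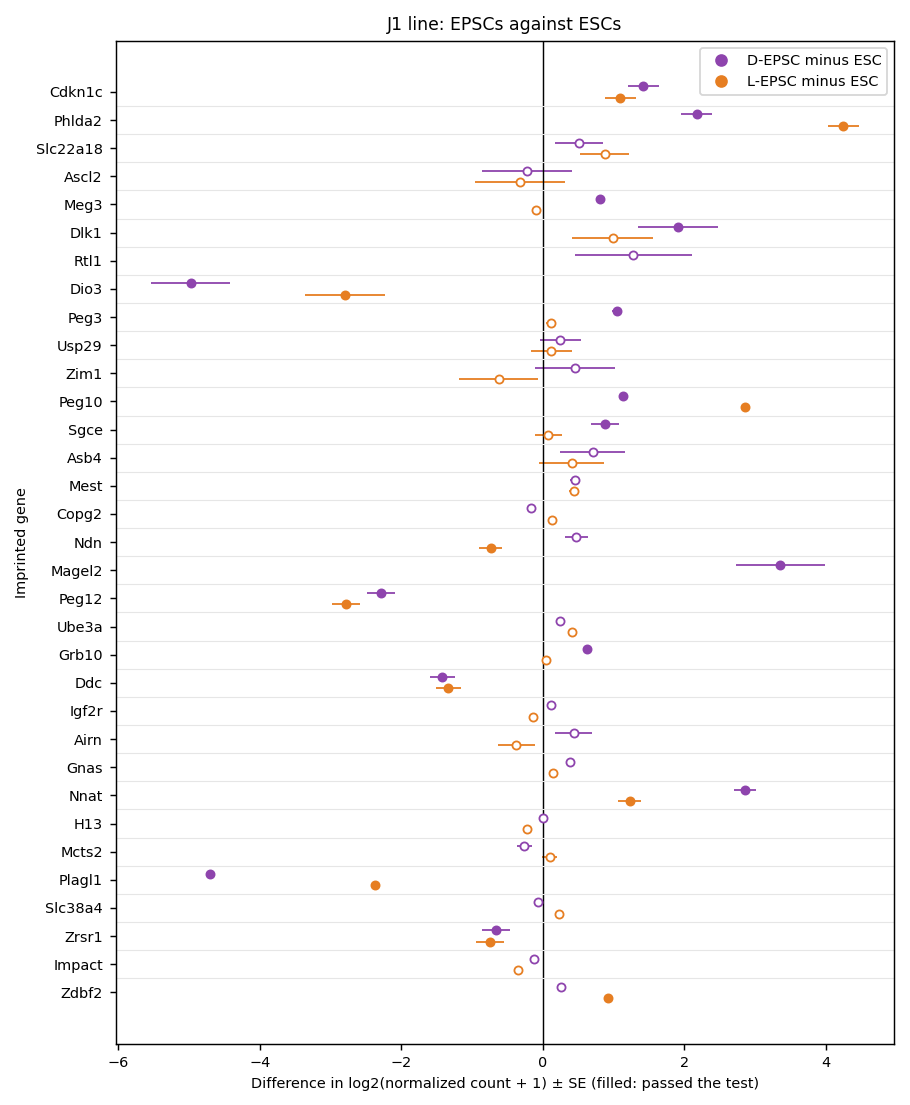
Log2 difference from J1 ESCs, with its SE, of 33 imprinted genes in D-EPSCs and L-EPSCs; filled points passed the call. Among genes above the floor in both groups Plagl1 lies lowest, and Phlda2 lies highest in L-EPSCs. Genes at the floor in both groups of a comparison are not drawn. Dio3, with no read in D-EPSCs only, is drawn.

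The genes that are imprinted singly held the largest fitted J1 difference among genes read in both groups. Plagl1 (chr10:12810497-12851500), a zinc finger protein that acts as a growth suppressor and regulates other imprinted genes, stood at 3178/3024 in J1 ESCs, 116/120.4 in D-EPSCs and 614/583 in L-EPSCs. The groups did not overlap and D-EPSCs were lowest. The differences were -4.70 ± 0.06, adjusted p = 7.8e-09 for D-EPSCs, -2.37 ± 0.06, adjusted p = 1.3e-07 for L-EPSCs and 2.33 ± 0.06, adjusted p = 4e-07 for L-EPSCs minus D-EPSCs. In the lines Plagl1 was at 60.6/72.5, 598/607 and 288/341 in Oct4, Sox2 and Nanog ESCs and at 250.2/268, 648/647 and 118/129 in L-EPSCs. Oct4 ESCs were lowest, with differences of -3.16 ± 0.10, adjusted p = 1.4e-12 from Sox2 and -2.22 ± 0.10, adjusted p = 7.1e-11 from Nanog ESCs. Conversion raised Plagl1 in the Oct4 line (1.95 ± 0.10, adjusted p = 1e-10), where it went from the lowest level of the lines, lowered it in the Nanog line and was not called in the Sox2 line. With Dox it fell in the Sox2 line to 265/266.

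Zdbf2 (chr1:63319839-63361150), a paternally expressed zinc finger gene, fell on conversion in all 3 tet-off lines. It stood at 2201/2088, 2357/2320.2 and 2881/2940.5 in Oct4, Sox2 and Nanog ESCs and at 189/159.9, 466/507 and 224/172 in their L-EPSCs. Every ESC library lay far above every L-EPSC library. The log2 differences were -3.62 ± 0.11, adjusted p = 1.2e-13, -2.27 ± 0.11, adjusted p = 7.6e-11 and -3.88 ± 0.11, adjusted p = 5.6e-14, and that of the Sox2 line differed from the other lines by the interaction term. With Dox the values were 107/91, 320.1/308 and 307/302. In J1 cells Zdbf2 went the other way, at 1273/1296 in ESCs, 1516/1564 in D-EPSCs and 2402/2455 in L-EPSCs. L-EPSCs were highest, at 0.92 ± 0.04, adjusted p = 1e-06 above ESCs, and were also called above D-EPSCs. The J1 and tet-off tables were normalized separately, so the difference between J1 and the lines was not tested.

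Zrsr1 (chr11:22873215-22876498), an intronless gene related to splicing factor U2AF within Commd1, fell on conversion in all 3 lines as well. It went from 305/311 to 127/130.3 in the Oct4 line (-1.26 ± 0.10, adjusted p = 2.9e-08), from 309/326 to 143/171 in the Sox2 line (-1.02 ± 0.10, adjusted p = 6.4e-07) and from 209/195 to 65/62.2 in the Nanog line (-1.65 ± 0.10, adjusted p = 1.1e-09). In J1 cells it stood at 202/229.6, 109/168 and 134/123 and was called lower in both EPSC types, and with Dox it rose in the Oct4 line to 263/274. Impact, a regulator of the GCN2 kinase, fell on conversion of the Oct4 line from 1682/1773 to 1019.6/1013 and of the Sox2 line from 3714/3452 to 1924/1930.4. Sox2 ESCs held more of it than Nanog ESCs (1076/1015), at 1.78 ± 0.06, adjusted p = 5.6e-13. Slc38a4 (chr15:96825254-96886387), an amino acid transporter of the placenta and liver, was abundant in all libraries. It rose on conversion of the Oct4 line from 4248/4431 to 9970.4/10096, and with Dox stood at 12741/12849. It lay between 2470.1 and 3116 in J1 cells, not called.

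**Figure D5:**
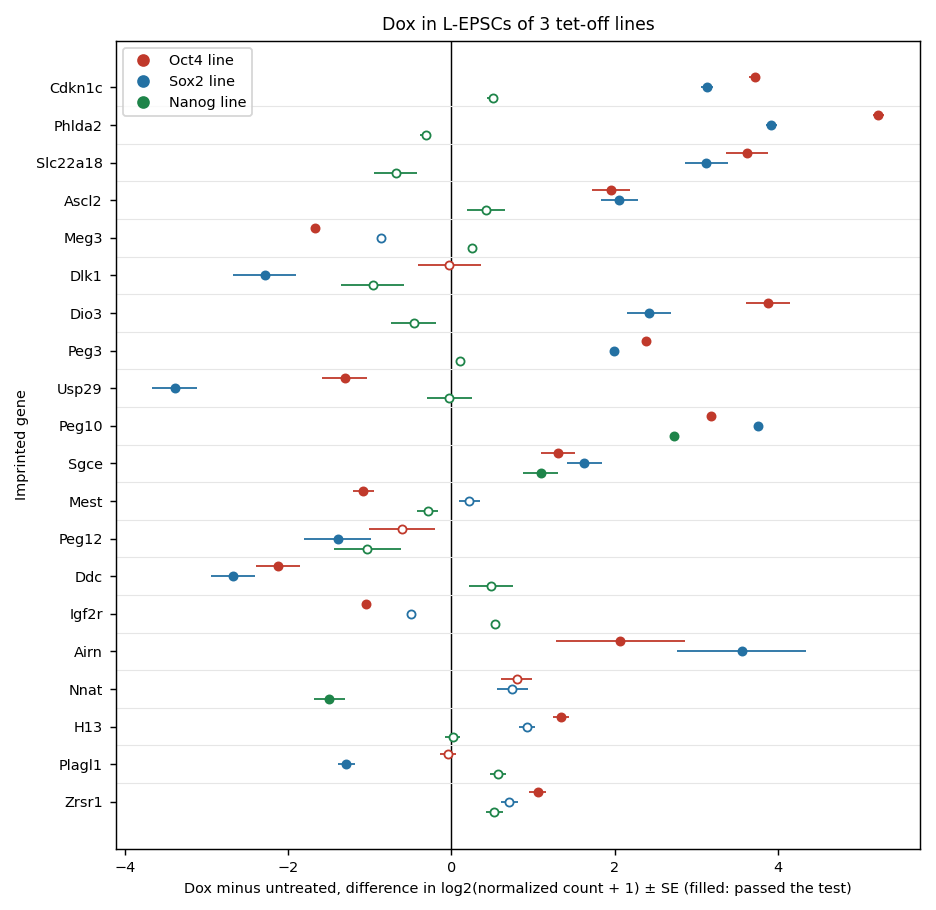
Log2 difference, L-EPSCs with Dox minus L-EPSCs without, with its SE for 20 imprinted genes in the Oct4, Sox2 and Nanog lines. Phlda2, Cdkn1c, Slc22a18, Peg3 and Dio3 lie well above 0 in the Oct4 and Sox2 lines and between -1 and 1 in the Nanog line, and Peg10 lies above 0 in all 3. Genes at the floor in both groups of a comparison are not drawn.

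Levels of different genes were compared only per length, as the mean normalized count per kb of annotated exon. In J1 ESCs the most abundant were Slc38a4 at 659, Impact at 612 and Plagl1 at 425. In Dox-treated Oct4 L-EPSCs they were Peg10 at 2.17e+04, Phlda2 at 1.27e+04 and Cdkn1c at 5.72e+03, and Peg10 also led in Dox-treated Sox2 L-EPSCs at 1.84e+04.

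A list of 34 regulators of imprints (zinc finger proteins and partners, DNA methyltransferases, TET enzymes and chromatin factors) was described beside the imprinted genes. On conversion 15 of 34 were called lower and 1 higher in the Oct4 line, 9 lower and 1 higher in the Sox2 line and 12 lower and 5 higher in the Nanog line, beside 15.4% lower and 13% higher, 11.6% and 7.99%, and 14.7% and 12.2% of all genes tested. Zfp57 stood at 7217/7163, 4013/4085 and 7763/7566 in Oct4, Sox2 and Nanog ESCs and at 2265/2133, 1831/1736 and 1181/1199 in L-EPSCs. It fell in all 3 lines (-1.71 ± 0.05, adjusted p = 7.1e-14, -1.18 ± 0.05, adjusted p = 1.4e-11 and -2.69 ± 0.05, adjusted p = 2.7e-16) and again with Dox in the Oct4 line to 309/334 (-2.77 ± 0.05, adjusted p = 1.1e-16) and in the Sox2 line to 716/663 (-1.37 ± 0.05, adjusted p = 1.3e-12). Trim28, the co-repressor that Zfp57 recruits, fell on conversion of the Oct4 (-1.34 ± 0.02, adjusted p = 2.6e-16) and Nanog lines (-1.42 ± 0.02, adjusted p = 1.2e-16), and the demethylating enzymes Tet1 and Tet2 fell in all 3 (-1.66, -1.48 and -1.72 for Tet1 and -1.26, -1.75 and -2.41 for Tet2 on the log2 scale). Dppa3, which guards the maternal genome from demethylation after fertilization, rose in the Oct4 (4.10 ± 0.13, adjusted p = 3.3e-13) and Nanog lines (2.54 ± 0.13, adjusted p = 1.2e-10). With Dox, 9 regulators were called lower and 2 higher in the Oct4 line, 8 lower and 2 higher in the Sox2 line and 1 higher in the Nanog line, beside 10.8% lower and 8.53% higher, 7.32% and 7.79%, and 2.59% and 2.80% of all genes.

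In J1 cells the regulators were called in both directions. Of 33 tested, 4 were higher and 3 lower in D-EPSCs and 4 higher and 4 lower in L-EPSCs, shares of 21.2% and 24.2% that are near the 20.7% and 20.3% of all genes called. Zfp57 stood at 5219/5232, 3752/3989 and 4325/4325 and was not called. The de novo methyltransferase Dnmt3a was at 888/857 in ESCs, 3730.2/3689 in D-EPSCs and 3253/3351 in L-EPSCs. Its cofactor Dnmt3l was at 397/412, 1797/1789 and 2606/2572. Both lay higher in each EPSC type, Dnmt3a by 2.09 ± 0.04, adjusted p = 1.9e-08 and 1.92 ± 0.04, adjusted p = 2.8e-08 and Dnmt3l by 2.14 ± 0.04, adjusted p = 3.4e-08 and 2.67 ± 0.04, adjusted p = 1.2e-08. Uhrf1, which carries methylation through replication, was lower in both (-1.04 and -0.76 on the log2 scale).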

How the data were processed

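Bulk poly(A) RNA-seq libraries of J1 cells (6) and of the tet-off lines (18) were analysed. Per the submitters' processing notes and the study's methods, the authors trimmed reads with Trim Galore 0.6.4, aligned them with STAR 2.7.9a to mm9 (NCBIM37), counted genes with HTSeq 0.11.2 and divided the counts by DESeq2 size factors, and they deposited this normalized signal per gene, in 1 table for J1 cells and 1 for the tet-off lines. The strand setting of the counting is not given in the sources used here. All values (100%) were whole multiples of 1 read's worth, so reads per library were recovered from the normalized counts. The tables give positions of a later build, so positions were taken by gene identifier from the NCBIM37 annotation, which held 99.28% and 99.15% of the identifiers, and promoters came from RefSeq (GRCm38.p6).

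Groups came from the sample labels. Values of genes with at least 2 reads in total (21533 and 24007 genes) were taken as log2(normalized count + 1), and fold changes on this scale understate the change of low genes. They were fitted with limma 3.58.1 in R 4.3.3, all groups of a table in 1 fit with a trend in the variance, with Benjamini-Hochberg adjustment across every gene tested. A gene was called at an adjusted p under 0.05 and a log2 difference beyond 0.6 (J1 cells, conversion) or 1 (Dox, lines, interactions). An exact permutation test of 2 libraries against 2 can reach p = 0.333 at best. Called imprinted genes averaging 20 normalized counts or more are given with their values, and the 8 with the largest difference in each of the 18 comparisons also with their test. Genes at 3 reads or fewer in every library of a group are at the floor and a fold against them is a lower bound. Depth differed by less than 1.5 times between libraries of a table and limits the precision of low genes.

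The imprinted genes and the lists of regulators and markers were chosen with earlier results of these data known. Alternatives were edgeR 4.0.16 and DESeq2 1.42.0 run on recovered reads, scaling by TMM or by the median, other filters (a mean of at least 10, or none), a pseudocount of 0.1, the other fold threshold, the groups compared alone, a replicate block and leaving out each library. The fits were also run on simulated counts with planted changes and a single fixed dispersion. Such counts cannot show that p-values from 2 possibly technical libraries hold here. The 2 tables were never tested against each other.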

Additional observations from a re-analysis of the deposited data

Results flagged for a closer look

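The change on conversion of ESCs to L-EPSCs differed between tet-off lines by the interaction term of the limma fit for the following genes, at most 8 a pair of lines with the largest values among called genes that were found by symbol and averaged 20 normalized counts or more (difference of log2 differences, adjusted over all genes). For Oct4 minus Sox2 it was 3.48 for Mest, 3.45 for Meg3, 2.69 for Peg10, 2.51 for Sgce, 1.90 for Nnat, 1.84 for Plagl1, 1.61 for Dio3 and 1.52 for Peg3, with adjusted p from 5.5e-17 to 0.0065. For Oct4 minus Nanog it was 4.81 for Meg3, 4.62 for Grb10, 3.28 for Plagl1, 2.62 for Peg10, 2.43 for Dlk1, 2.21 for Nnat, 1.56 for Dio3 and 1.49 for Mest, with adjusted p from 8.1e-17 to 0.0063. For Sox2 minus Nanog it was 4.25 for Grb10, -2.41 for Sgce, -1.99 for Mest, 1.62 for Zdbf2, 1.44 for Plagl1, 1.35 for Meg3, -1.29 for Ndn and -1.25 for Slc22a18, with adjusted p from 6.3e-12 to 0.019. The levels of Meg3, Mest, Plagl1 and Peg10 in ESCs also differed between lines, and the part of this was not tested. Airn, averaging under 20, was called for Oct4 minus Sox2 and Oct4 minus Nanog. The Sox2 minus Nanog calls of Ndn and Slc22a18 were lost with the groups fitted alone (adjusted p = 0.072 and 0.16) and without some single libraries (adjusted p = 0.055 to 0.072 for Ndn without the second Nanog ESC, first Sox2 ESC or first Sox2 L-EPSC library, and 0.05 to 0.095 for Slc22a18 without either Nanog ESC library, the first Nanog L-EPSC, the first Sox2 ESC or the first Sox2 L-EPSC library). That of Dio3 for Oct4 minus Nanog was lost with the groups fitted alone (adjusted p = 0.078).

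The change with Dox differed between lines by the same kind of term. For Oct4 minus Sox2 it was 2.08 for Usp29, 1.46 for Dio3, 1.31 for Phlda2, -1.30 for Mest, 1.24 for Plagl1 and 1.10 for Ndn, with adjusted p from 3.9e-08 to 0.026. It was called for Dlk1 as well, at 2.26 ± 0.55, adjusted p = 0.0054, with an average of 19.2 normalized counts. The Ndn call was lost with the groups fitted alone (adjusted p = 0.079) and without the second Dox or first untreated Oct4 library, either Dox Sox2 library or the second untreated Sox2 library (adjusted p = 0.087 to 0.15). For Oct4 minus Nanog it was 5.54 for Phlda2, 4.34 for Dio3, 4.30 for Slc22a18, 3.21 for Cdkn1c, -2.61 for Ddc, 2.29 for Nnat, 2.28 for Peg3 and -1.92 for Meg3, with adjusted p from 5.9e-16 to 4.7e-05. For Sox2 minus Nanog it was 4.24 for Phlda2, 3.80 for Slc22a18, -3.36 for Usp29, -3.16 for Ddc, 2.88 for Dio3, 2.62 for Cdkn1c, 2.24 for Nnat and 1.89 for Peg3, with adjusted p from 2.6e-14 to 2.1e-05. Nanog RNA fell less with Dox in its line than Pou5f1 and Sox2 did in theirs, though the study reports loss of Nanog protein there. The part of the smaller RNA fall in the differences was not tested.

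Zdbf2 rose on the way from ESCs to L-EPSCs in J1 cells (0.92) and fell in the 3 tet-off lines (-3.62, -2.27 and -3.88), in both libraries of each. The difference between J1 and the lines was not tested, since their tables were normalized separately.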

How the results depend on the processing

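The 137 gene results with a test were picked for the largest differences among called genes in the same libraries that the alternatives reuse. None of them turned direction under any alternative, which this choice made likely. The call of all 137 was kept by edgeR. With the compared groups fitted alone 12 calls were lost, and leaving out a library lost 30 of 732, those of Airn, Ddc, Dio3, Dlk1, Ndn, Nnat, Peg12, Sgce, Slc22a18 and Usp29 named with their values above. Counts of called genes moved by over 1.5 times in 6 cases. With the log2 threshold of 1 the J1 L-EPSC minus D-EPSC count went from 11 to 6 and that of the Oct4 conversion from 17 to 11, and with 0.6 the Sox2 minus Nanog ESC count went from 9 to 15. With the compared groups fitted alone, the Nanog Dox count went from 3 to 1 and the Oct4 minus Nanog ESC count from 12 to 7. Without the second J1 ESC library the L-EPSC minus ESC count went from 11 to 7. Leaving out each library in turn gave 11 to 12 genes for D-EPSCs minus ESCs, 7 to 9 for L-EPSCs minus ESCs and 8 to 10 for L-EPSCs minus D-EPSCs. It gave 16 to 17, 10 to 13 and 14 to 18 for conversion of the Oct4, Sox2 and Nanog lines, 15 to 16, 13 to 15 and 2 to 3 for Dox, and 10 to 12, 11 to 12 and 9 to 11 for the ESC lines. For the conversion differences it gave 10 to 11, 10 to 12 and 7 to 9, and for the Dox differences 6 to 8, 12 to 14 and 15 to 17. The Airn call between J1 EPSC types was lost under TMM scaling, median centring, DESeq2, no filter and the block (adjusted p = 0.05, 0.054, 0.096, 0.059 and 0.07).

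The labels give replicate numbers, but same-numbered libraries did not deviate together (correlations of -0.0093 to -0.0013 in J1 cells and -0.0279 to 0.0402 in the lines), so the numbers were not taken to pair them. With the replicate block the counts in the order above, J1 first, were 15, 11 and 10, then 17, 12 and 16 for conversion, 16, 14 and 3 for Dox, 12, 12 and 9 for the ESC lines, 11, 12 and 10 for the conversion differences and 7, 14 and 15 for the Dox differences.

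With 2 libraries per group and 1 line per transgene, the calls describe these libraries. Genes under about 20 normalized counts, such as Rtl1, Asb4 and Magel2, are limited by depth. Neither parental allele nor methylation was measured. TMM scaling moved the median gene by -0.013 to 0.037 and median centring by -0.075 to 0.065 on the log2 scale.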

Other observations

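Of 38 further genes listed as imprinted or neighbours of imprinted genes, H19 and Igf2 among them, 30 were tested in J1 cells and 32 in the tet-off lines. With Dox, 8 were called higher and 6 lower in the Oct4 line, 8 higher and 2 lower in the Sox2 line and 4 higher and 2 lower in the Nanog line, beside 8.53% higher and 10.8% lower, 7.79% and 7.32%, and 2.80% and 2.59% of all genes tested. Sfmbt2, a Polycomb-related gene needed for the placenta, stood at 1719.7/1576 without and 4930.0/4833 with Dox in the Oct4 line (1.57 ± 0.07, adjusted p = 1.4e-11). In the Sox2 line it was at 1390.3/1309 and 6421/6303 (2.24 ± 0.07, adjusted p = 3.2e-13). The Dox libraries lay above the untreated ones in both lines. In J1 cells Sfmbt2 stood at 377/366 in ESCs, 60.2/71.5 in D-EPSCs and 228/202 in L-EPSCs, lowest in D-EPSCs (-2.48 ± 0.13, adjusted p = 3.5e-06 against ESCs).

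On conversion, 5 of these genes were called higher and 6 lower in the Oct4 line, 2 higher and 8 lower in the Sox2 line and 6 higher and 4 lower in the Nanog line, beside 13% higher and 15.4% lower, 7.99% and 11.6%, and 12.2% and 14.7% of all genes tested. Dhcr7, the last enzyme of cholesterol synthesis, rose in all 3 lines, from 525/497 to 1258/1232, from 584/621 to 1167/1160.3 and from 509/489 to 1836/1865. Gatm, an enzyme of creatine synthesis, rose in all 3 as well (1.31, 1.08 and 1.81 on the log2 scale) and in both J1 EPSC types (3.25 and 2.71). Dcn, a proteoglycan that is also a marker of fibroblasts, was at 639/616, 1616/1575 and 619.9/615 in J1 ESCs, D-EPSCs and L-EPSCs. It was highest in D-EPSCs, and the part of fibroblasts in this was not tested. The genes named here were chosen after their values were seen.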
